A study of Homo sapiens with 12 samples.

Results

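The 10 genes described here belong to the canonical Wnt pathway. They were APC, AXIN1, AXIN2, GSK3B, RNF43 and ZNRF3, which hold the pathway back, and PORCN, LRP6, CTNNB1 and TCF7L2, which carry it forward. They were chosen by name from the sgRNA count table of a genome-scale CRISPR-Cas9 knockout screen, and they make up 10 of 20915 gene names. An sgRNA is the guide RNA that directs the Cas9 nuclease to a gene, and its read count stands for the abundance of the cells that carry it. Each gene had 6 sgRNAs, 3 in each of the library pools A and B, so that 60 of 123411 entries were used, 36 for the brakes and 24 for the forward components.

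In the Wnt pathway, PORCN attaches a lipid to Wnt ligands so that they can be secreted, and LRP6 is the co-receptor that binds them together with a Frizzled receptor. RNF43 and ZNRF3 are related ubiquitin ligases of the membrane that remove Frizzled receptors from the surface. Without a ligand, the scaffolds APC, AXIN1 and AXIN2 and the kinase GSK3B form the destruction complex, which marks beta-catenin, the product of CTNNB1, for degradation. Beta-catenin that escapes enters the nucleus and activates genes together with TCF7L2, a transcription factor that binds DNA. The pathway drives renewal of the gut lining, and mutations in APC, RNF43 or CTNNB1 that switch it on occur in cancers of the digestive tract.

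Both lines screened were HER2-amplified. N87 is a gastric cancer line, and OE19 comes from an adenocarcinoma of the oesophagogastric junction. All 6 groups, controls included, carried the GeCKO V2 library in a single lentiviral vector holding Cas9 and the guide, taken up at a multiplicity of infection of 0.3, and had passed 7 days of puromycin (0.75 µg/mL in N87, 1.5 µg/mL in OE19). Baseline cells were collected at that point, and the others after another 14 days in DMSO vehicle or in lapatinib (0.5 µM in N87, 1 µM in OE19), a drug that blocks the kinases EGFR and HER2. Each group had 2 libraries from separate infections. The table counts guides in genomic DNA, so that neither the loss of a protein, nor Wnt activity, nor the identity of a line by its markers could be checked in it, and it gives no guide sequence or cut site.

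The 12 libraries held from 13105805 to 33743599 counts, and the median count of the 60 sgRNAs was lowest at 50 (OE19 lapatinib replicate 1) and highest at 241. Replicates correlated across these sgRNAs with r between 0.883 and 0.973 on a log2 scale. Levels are given as normalized counts, averaged over the 6 sgRNAs of a gene. Each library was scaled by the median ratio of its sgRNA counts to their geometric mean over libraries. This scale does not follow total counts. The scale factor was 0.8084 for N87 lapatinib replicate 1, with 26675049 counts in total. For N87 vehicle replicate 1, with 26981640, it was 1.295. Levels, and the order of conditions by level, are given on this scale only. Changes are log2 fold changes of sgRNAs from edgeR, which scales libraries in another way (TMM), summed up per gene as the median with the SD over its sgRNAs. An sgRNA was tested where it had at least 40 counts over the 4 libraries compared. Of the 60, 59 were tested in all comparisons, and 1 AXIN1 sgRNA (HGLibB_03920), with 0 to 8 reads in any library, was not. A gene was tested by robust rank aggregation, which asks whether its sgRNAs lie near the top of the ranking of all sgRNAs. Its p is 1 in a direction where none of them ranks within the first 5%. With 2 libraries a group, the p-values of sgRNAs rest on the spread between infections. The p of a gene takes its sgRNAs as separate units in that ranking and does not itself measure this spread.

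None of the 10 genes passed an adjusted p of 0.05 in the gene test (edgeR and robust rank aggregation, Benjamini-Hochberg over all genes), in either direction, in any comparison. The count was also 0 for each comparison with DESeq2. At an unadjusted p under 0.05, 2 of the 10 were lower in N87 with lapatinib against vehicle (TCF7L2 and GSK3B), 0 in OE19 with lapatinib against vehicle, 1 was lower in N87 with vehicle against baseline (TCF7L2), and 1 was lower (TCF7L2) and 1 higher (RNF43) in OE19 with vehicle against baseline. For lapatinib against baseline it was 1 lower in each line, TCF7L2 in N87 and APC in OE19. Of all genes, 5.18% in N87 and 5.37% in OE19 were lower at that threshold with lapatinib against vehicle, and 5.08% and 5.47% higher. With vehicle against baseline 7.07% and 6.99% were lower, and 5.11% and 4.99% higher. Lapatinib against baseline had 5.23% and 5.69% lower, and 5.13% and 5.35% higher. Few genes passed the adjusted threshold with lapatinib, and more were called lower without drug. With lapatinib against vehicle the share of tested genes called was 0% higher and 0.0144% lower in N87, and 0.0957% higher and 0% lower in OE19. With vehicle against baseline it was 0.0574% higher and 2.34% lower in N87, and 0% higher and 1.53% lower in OE19. Lapatinib against baseline gave 0% and 0.134% in N87, and 0.124% and 0.129% in OE19. The genes called lower without drug had a middle median log2 fold change of -0.62 in N87 and -0.79 in OE19, and the 3 called lower in N87 with lapatinib had one of -2.375.

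Single sgRNAs of the 10 genes did pass, most of them in N87 with lapatinib. There, 20 of 59 (33.9%) were higher than with vehicle, beside 31.2% of all sgRNAs, and 17 (28.8%) were lower, beside 29.9%. This split rested on the scaling. With total counts only, 13 of the 59 were higher and 28 lower, beside 19% and 44.9% of all sgRNAs, and with scaling on the control guides 14 and 21, beside 24.5% and 37.7%. Of the control guides, which target no gene, 1045 of 1999 entries (52.3%) passed in the same comparison, 731 higher and 314 lower, so that guides with no target were often called as well. In OE19 with lapatinib, 2 of 59 were higher (3.39%, beside 2.33% of all) and 0 lower (beside 0.0795%), and 2.21% of control entries passed. DESeq2 called 3 higher there, beside 3.03% of all sgRNAs, and 0 lower, beside 0.128%. Without drug, 0 of 59 passed in N87, beside 0% higher and 0.0399% lower over all sgRNAs. DESeq2 gave 0 as well, beside 0.00407% and 0.146%. In OE19 without drug 1 was lower (1.69%, beside 0.893%) and 0 higher (beside 0.0114%). By DESeq2 it was 1 lower, beside 1.09%, and 0 higher, beside 0.0236%.

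**Figure D1:**
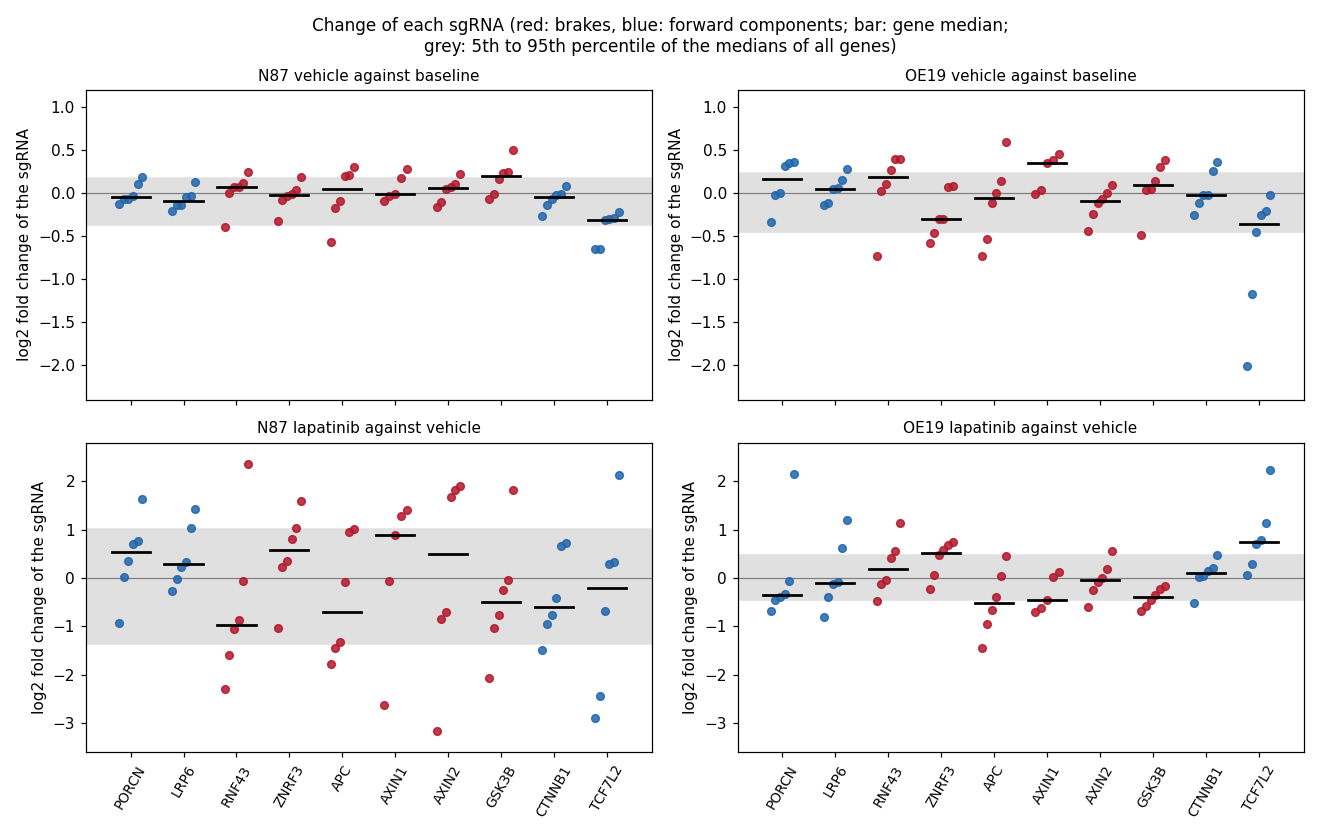
Log2 fold change (vertical axis) of each tested sgRNA of the 10 genes in 4 comparisons, with brakes in red and forward components in blue. Bars are gene medians, and the grey band spans the 5th to 95th percentile of the medians of all genes. The TCF7L2 sgRNAs all lie below 0 without drug in both lines and above 0 in OE19 with lapatinib, and the sgRNAs of single genes spread from -3.17 to 2.36 in N87 with lapatinib.

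In N87 with lapatinib, sgRNAs to the same gene moved in opposite directions. The 2 replicate pairs, which match libraries by replicate number only, gave similar values for the 59 sgRNAs (r = 0.912, same sign in 53, median gap 0.36). The SD over the sgRNAs of a gene had a median of 1.27. In 8 of the 10 genes at least 1 sgRNA was called higher and at least 1 lower, ZNRF3 and LRP6 being the exceptions with 2 called higher each. The same held for 75.8% of the 18925 genes with 5 or 6 tested sgRNAs, whose SD over sgRNAs had a median of 1.29, so neither value sets the 10 genes apart. In OE19 the SD over sgRNAs had a median of 0.48 and the gap between pairs 0.47 (r = 0.457). Between the lines, the lapatinib changes of the 59 sgRNAs gave r = -0.0029 with the same sign in 29. Those of 119370 sgRNAs in the table gave r = 0.00834 with the same sign in 49.8%. Without drug the 59 sgRNAs gave r = 0.502 between the lines, with the same sign in 36. Over 120694 sgRNAs this was 0.376, with the same sign in 58.1%. These values of r are across sgRNAs, which share libraries and are not replicates.

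TCF7L2 (GRCh37 chr10:114710006-114927437, plus strand) had all its sgRNAs on the same side of 0 in 3 of the 4 comparisons with vehicle, more than any other of the 10. Its mean normalized count in N87 was 139 and 133 at baseline, 109 and 98.9 under vehicle and 92.0 and 93.3 under lapatinib, so that both vehicle libraries lay below both baseline libraries. OE19 had 130 and 131 at baseline, 83.2 and 105 under vehicle and 134 and 154 under lapatinib, with the vehicle libraries below all others. All 6 sgRNAs were below baseline without drug in both lines. In N87 they lay between -0.65 and -0.22 with a median of -0.31 (SD 0.20), and the replicate pairs gave -0.33 and -0.40. In OE19 they lay between -2.01 and -0.02 with a median of -0.36 (SD 0.76), and the pairs gave -0.35 and -0.34.

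The median of TCF7L2 ranked 1350th of 20894 genes from the lowest in N87 and 1497th in OE19, inside the range of the middle 90% of genes in both. The unadjusted p for depletion was 0.0198 in N87 and 0.0235 in OE19, and the adjusted p (edgeR with rank aggregation) was 0.392 and 0.457. Without OE19 vehicle replicate 2, whose removal brought the sgRNAs called over the whole table to 15755 higher and 17592 lower of 122495, the adjusted p in OE19 was 0.0194 by the same test. The lowest over the N87 alternatives was 0.130. The sgRNA HGLibB_49738 was the 1 of the 59 called in OE19 without drug: 95.8 and 134 normalized counts at baseline and 17.7 and 42.0 with vehicle, a log2 fold change of -2.01 (edgeR adjusted p = 0.0400).

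With lapatinib, TCF7L2 sgRNAs went different ways in the lines. In OE19 all 6 were above vehicle, from 0.07 to 2.24, with a median of 0.75 (SD 0.77), and both pairs gave 0.78. The gene ranked 273rd from the highest of 20890, above the 95th percentile of gene medians, yet its p for enrichment was 0.122 and the adjusted p 1 (edgeR with rank aggregation). HGLibB_49738 again passed, with 103 and 171 normalized counts with lapatinib (log2 2.24, edgeR adjusted p = 0.0354). The vehicle libraries serve both of these comparisons, so the 2 results are not independent. Set directly against baseline, lapatinib gave a median of 0.18 (SD 0.41) with 5 of 6 sgRNAs above 0, and -0.27 when libraries were scaled by total counts only.

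In N87 with lapatinib, 3 TCF7L2 sgRNAs lay above vehicle and 3 below, from -2.90 to 2.13, with a median of -0.20 (SD 1.88). HGLibA_57084 had 134 and 113 normalized counts with vehicle and 8.66 and 25.2 with lapatinib, and HGLibB_49739 had 209 and 187 against 33.4 and 42.0. HGLibB_49737 went the other way, from 40.9 and 54.2 to 207 and 225. The p for depletion was 0.0159 and the adjusted p 0.929 (edgeR with rank aggregation). Against baseline the median was -0.83 (SD 1.89, adjusted p = 0.518 by edgeR with rank aggregation).

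**Figure D2:**
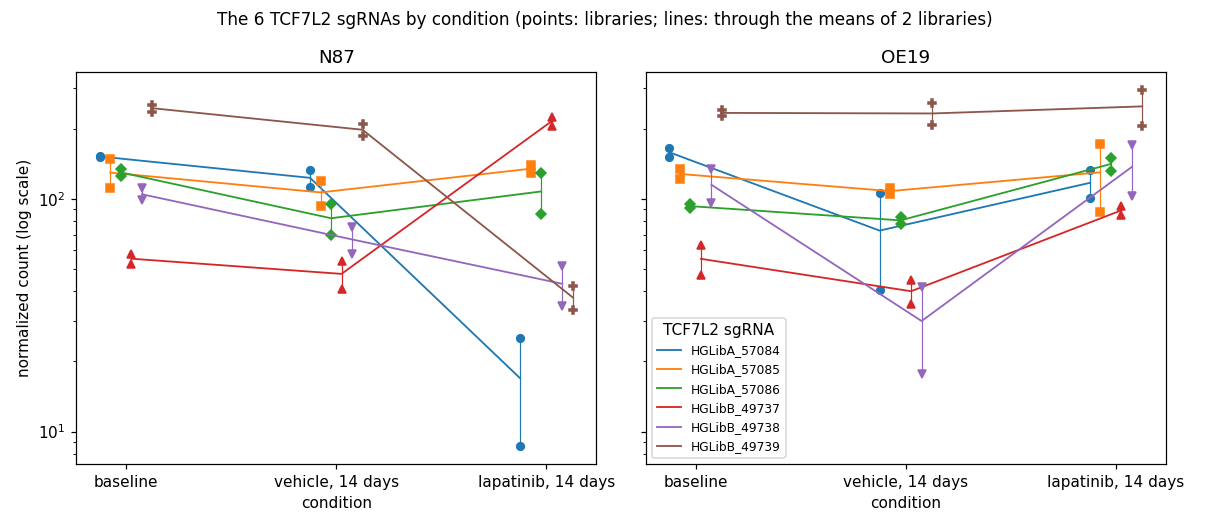
Normalized count (vertical axis, log scale) of the 6 TCF7L2 sgRNAs at baseline and after 14 days with vehicle or lapatinib in N87 (left) and OE19 (right). Points are the 2 libraries of a condition and lines join their means. Every line falls from baseline to vehicle except that of HGLibB_49739 in OE19, which stays near level, and in N87 the lines part with lapatinib.

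CTNNB1 (chr3:41236232-41301587, plus strand), which encodes the beta-catenin that TCF7L2 acts with, did not share this pattern. In N87 its mean normalized count was 215 and 224 at baseline, 216 and 208 under vehicle and 197 and 196 under lapatinib. OE19 gave 213 and 222, 223 and 238, and 250 and 255.5. On the scale of normalized counts the lapatinib libraries were the lowest in N87 and the highest in OE19, but by little. Without drug the median change was -0.05 (SD 0.12) in N87 and -0.02 (SD 0.23) in OE19, both within the spread between sgRNAs. With lapatinib it was -0.595 (SD 0.90) in N87, where 2 sgRNAs were called higher and 2 lower (p for depletion 0.0508, adjusted p = 0.968 by edgeR with rank aggregation). The OE19 median was 0.10 (SD 0.33) with 5 of 6 sgRNAs above 0, and -0.34 when scaled by total counts only.

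Among the scaffolds of the destruction complex, APC (chr5:112043215-112181936, plus strand) had a mean normalized count of 124 and 138 at baseline, 126 and 142 under vehicle and 93.4 and 144 under lapatinib in N87. The OE19 values were 125 and 134, 125 and 104, and 123 and 104. The conditions overlapped in N87. In OE19 both lapatinib libraries lay below both baseline libraries, and the vehicle libraries overlapped with the lapatinib libraries. Its median change with lapatinib was -0.70 (SD 1.245) in N87, where 2 sgRNAs were called lower and 2 higher. In OE19 it was -0.525 (SD 0.69) with 4 of 6 below 0, which is beyond the 5th percentile of gene medians (-0.448) and ranked 563rd of 20890 from the lowest.

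Against baseline, lapatinib gave APC its most extreme place, with a median of -0.754 (SD 0.56) in OE19, 5 of 6 sgRNAs below 0 and -0.61 and -0.70 in the replicate pairs. It ranked 172nd of 20893 from the lowest, and 0.818% of genes lay lower. The p for depletion was 0.0330 and the adjusted p 0.8115 (edgeR with rank aggregation). The sgRNA that stayed above 0, HGLibA_02390, was also the most abundant, with 159 and 220 reads in the lapatinib libraries, while HGLibB_02387 had 6 and 8. The mean count over the sgRNAs and the median change therefore weigh these guides differently. Without drug the median was 0.05 (SD 0.33) in N87 and -0.06 (SD 0.48) in OE19.

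AXIN1 (chr16:337440-402723, minus strand) and AXIN2 (chr17:63524681-63557766, minus strand), related scaffolds of which AXIN2 is itself a target gene of the pathway, both had higher mean counts in N87 with lapatinib. For AXIN1 these were 102 and 95.6 at baseline, 103.5 and 107 under vehicle and 208 and 160 under lapatinib. For AXIN2 they were 157 and 147.5, 172 and 145, and 487 and 341. The lapatinib libraries lay above all 4 others for each gene, but the sgRNAs were divided. For AXIN2, 3 sgRNAs were called higher, from 1.68 to 1.905, and 2 lower, among them HGLibA_03925, which went from 117 and 75.1 normalized counts with vehicle to 3.71 and 18.0 (-3.17). Its median was 0.49 (SD 2.05), and -0.035 when scaled by total counts only. For AXIN1 3 were called higher and 1 lower, with a median of 0.88 (SD 1.66) over 5 sgRNAs, the highest of the 10 genes but inside the middle 90% of all genes.

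In OE19 no sgRNA of either scaffold was called. With lapatinib AXIN2 had a median of -0.04 (SD 0.39) and AXIN1 one of -0.44 (SD 0.37), and that of AXIN2 was 0.085 when scaled on the control guides. Without drug AXIN1 had a median of 0.35 (SD 0.22), 164th from the highest of 20894, but the replicate pairs gave 0.22 and -0.07, and without OE19 vehicle replicate 1 it was -0.03.

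GSK3B (chr3:119540168-119813841, minus strand), the kinase of the complex, had a mean normalized count in OE19 of 200.5 and 214 at baseline, 202 and 225.5 under vehicle and 166 and 171 under lapatinib. The lapatinib libraries lay below all 4 others. All 6 sgRNAs were below vehicle, from -0.675 to -0.16, with a median of -0.40 (SD 0.20), the smallest spread of the 10 genes in this comparison, and -0.31 and -0.39 in the pairs. No sgRNA ranked within the first 5%, so the p of the gene was 1, and 7.01% of genes had a lower median. In N87 the levels were 227 and 224, 245 and 264, and 224.5 and 204, and lapatinib gave a median of -0.50 (SD 1.30, 5 of 6 below 0, from -2.07 to 1.83; adjusted p = 0.965 by edgeR with rank aggregation). Without drug the median in N87 was 0.197 (SD 0.21), just above the 95th percentile of 0.181 (p for enrichment 0.0528, adjusted p = 0.975 by edgeR with rank aggregation). In OE19 it was 0.09 (SD 0.31), and -0.10 if scaled on the control guides.

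**Figure D3:**
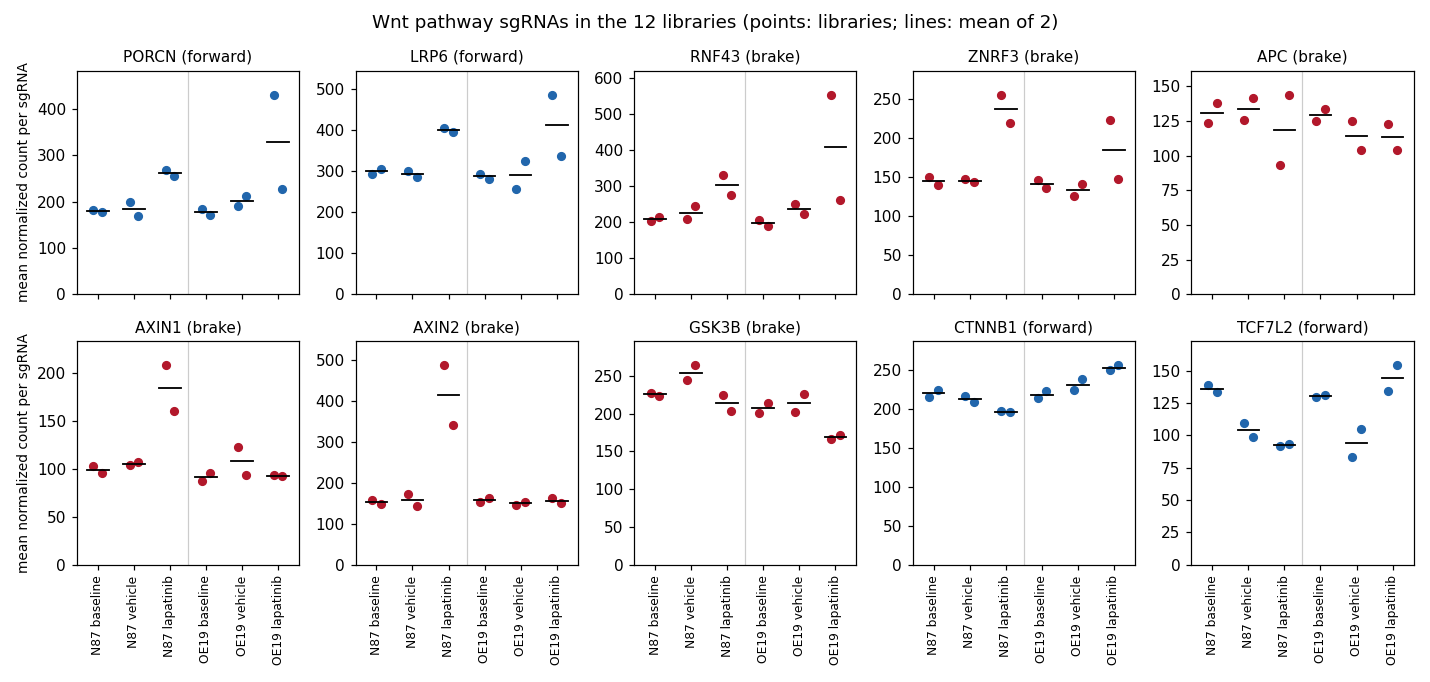
Mean normalized count over the 6 sgRNAs (vertical axis, from 0) of each gene in the 12 libraries, with brakes in red and forward components in blue; lines are means of 2 libraries. AXIN2 reaches 487 and 341 in N87 with lapatinib, GSK3B is lowest in OE19 with lapatinib at 166 and 171, and the RNF43 and PORCN libraries of OE19 with lapatinib lie far apart.

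The membrane ligase RNF43 (chr17:56431037-56494956, minus strand) had 202 and 213 mean normalized counts at baseline, 208.5 and 244.5 under vehicle and 330 and 274.5 under lapatinib in N87. In OE19 it had 206 and 190, 250 and 224, and 554 and 261. The lapatinib libraries lay above the others in both lines, with 1 sgRNA far above the rest in each. In N87 HGLibA_49973 went from 152 and 199 normalized counts to 1141 and 735, a fold of 5.31 in these counts. Its log2 fold change from edgeR, on the TMM scale, was 2.36 (edgeR adjusted p = 1.15e-06). The other 5 lay between -2.30 and -0.05, and 4 of them were called lower. The gene median was -0.965 (SD 1.62), the lowest of the 10, with 12.8% of all genes lower still.

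In OE19 the sgRNA that stood out was a different one, HGLibB_42634, with 745 and 672 normalized counts with vehicle and 2242 and 936 with lapatinib (log2 1.14, edgeR adjusted p = 0.271). Its value in N87 was -0.05, and that of HGLibA_49973 in OE19 was 0.41. The RNF43 median in OE19 was 0.18 (SD 0.57) with lapatinib, 0.25 and 0.007 in the pairs, and -0.28 when scaled by total counts only. Without drug it was 0.07 (SD 0.22) in N87 and 0.19 (SD 0.42) in OE19, where 5 of 6 sgRNAs were above baseline (p for enrichment 0.0408, adjusted p = 0.979 by edgeR with rank aggregation).

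Its relative ZNRF3 (chr22:29279560-29453476, plus strand) had 150 and 141 mean normalized counts at baseline, 148 and 144 under vehicle and 256 and 220 under lapatinib in N87. The median change with lapatinib was 0.59 (SD 0.89), with 5 of 6 sgRNAs above vehicle, 2 called higher and 0 lower. RNF43 and ZNRF3, which act on the same receptors, thus had medians of opposite sign in N87, each within its own spread. In OE19 ZNRF3 had 146 and 136, 126 and 141.5, and 223 and 147. Its lapatinib median of 0.53 (SD 0.38), 843rd from the highest of 20890, came from 1 replicate pair: the pairs gave 1.09 and -0.19, and it was -0.15 without OE19 lapatinib replicate 1. Without drug it was -0.30 (SD 0.27) in OE19, with pairs at -0.43 and 0.07, and -0.02 (SD 0.17) in N87.

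PORCN (chrX:48367347-48379202, plus strand), needed in the cell that secretes the ligand, had 182 and 177.5 mean normalized counts at baseline, 199 and 168 under vehicle and 268 and 256 under lapatinib in N87. Its median was 0.535 (SD 0.86), with 3 sgRNAs called higher and 1 lower. In OE19 it had 184.5 and 171, 191 and 212, and 431 and 227. The sgRNA HGLibB_38658 went from 259 and 301 normalized counts with vehicle to 1979 and 546 with lapatinib, a fold of 4.50 in these counts. Its log2 fold change from edgeR, on the TMM scale, was 2.14 (edgeR adjusted p = 0.04815). The other 5 lay between -0.68 and -0.06. The gene median was -0.36 (SD 1.05), so that mean level and median differed in direction.

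LRP6 (chr12:12268959-12419978, minus strand), the co-receptor, had 293 and 305 mean normalized counts at baseline, 301 and 285 under vehicle and 403.5 and 394 under lapatinib in N87. The raw counts there summed to 2337 and 2052 under vehicle and 1957 and 1967 under lapatinib, so the higher level depended on the scaling. The median was 0.28 (SD 0.64), with 2 sgRNAs called higher and 0 lower, and -0.24 when scaled by total counts only. In OE19 it had 292 and 281, 257 and 323, and 486 and 337, with a median of -0.10 (SD 0.72) and 2 of 6 sgRNAs above vehicle, and 0.02 when scaled on the control guides. Without drug PORCN and LRP6 had medians of -0.05 (SD 0.12) and -0.09 (SD 0.12) in N87, and of 0.16 (SD 0.28) and 0.05 (SD 0.16) in OE19. In OE19 these were -0.02 and -0.13 when scaled on the control guides.

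**Figure D4:**
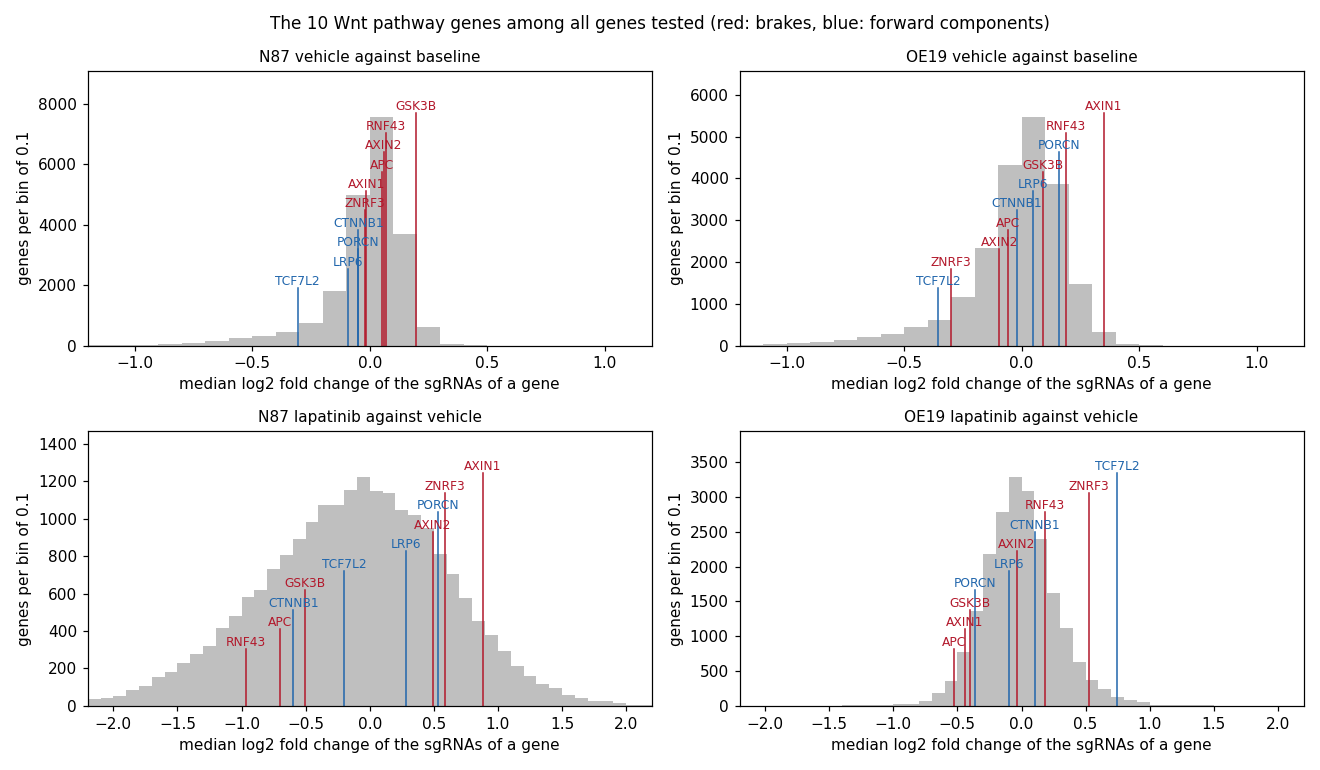
Number of genes per bin of 0.1 (vertical axis) by median log2 fold change of their sgRNAs (horizontal axis) in 4 comparisons, with the 10 genes marked in red (brakes) and blue (forward components). Brakes and forward components are mixed in each panel except N87 without drug, where the forward components all lie below the brakes. TCF7L2 is the lowest of the 10 without drug in both lines. The middle 90% of genes spans -1.37 to 1.01 in N87 with lapatinib against -0.45 to 0.48 in OE19.

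The comparison of the 2 sides asks whether cells without a brake and cells without a forward component changed in opposite directions. The median over the 6 brakes less that over the 4 forward components was -0.05 in N87 with lapatinib against vehicle, with -0.02 and 0.05 in the replicate pairs. In OE19 it was -0.22, with -0.48 and -0.11, but 0.08 without OE19 vehicle replicate 1. Against the median of all genes (-0.093 in N87, -0.019 in OE19), 3 of 6 brakes and 2 of 4 forward components lay above it in N87, and 2 of 6 and 2 of 4 in OE19. Among single sgRNAs in N87, 12 of 35 tested for brakes were called higher and 12 lower, and 8 and 5 of 24 for forward components, with 31.2% of all sgRNAs higher and 29.9% lower in the same comparison.

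Without drug the difference was 0.13 in N87 (0.04 and 0.25 in the pairs), where 4 of 6 brakes and 0 of 4 forward components lay above the median of all genes of 0.020. All forward medians there lay below all brake medians, from -0.307 to -0.048 against -0.022 to 0.197. The order did not hold without N87 baseline replicate 1, where PORCN was at 0.027 and APC at -0.078. In OE19 the difference was 0.001 (0.18 and -0.14), with 3 of 6 and 2 of 4 above a median of 0.014. Lapatinib against baseline gave 0.36 in N87 and -0.10 in OE19, and for OE19 it was -0.37 without OE19 lapatinib replicate 1 and -0.28 without replicate 2. With 10 genes chosen by name these are descriptions, and no test was run on them.

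Whether the lines differed was tested with an interaction term fitted to 8 libraries, with the higher lapatinib dose in OE19 part of it. None of the 10 genes passed in the lapatinib effect, beside 0.0191% of genes called more positive in OE19 and 0% more negative, and 0 passed with DESeq2. TCF7L2 was the 1 gene at an unadjusted p under 0.05, beside 5.19% of all genes more positive in OE19 at that threshold. Its median difference was 1.52 (SD 1.84), OE19 being the higher, with 5 of 6 sgRNAs above 0 and 1.67 and 1.22 in the pairs (adjusted p = 0.935 by edgeR with rank aggregation). RNF43 followed in size with 1.08 (SD 1.53) against a median of all genes of 0.15, and AXIN1 and AXIN2 lay at the other end with -0.84 (SD 1.59) and -0.78 (SD 2.23). Of the 59 sgRNAs, 9 (15.3%) were more positive in OE19, beside 20.7% of all, and 14 (23.7%) more negative, beside 20.5%. With scaling on the control guides these were 17 and 10, beside 30.2% and 13.5%. Of the control entries 36.2% passed.

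For the drug-free change none of the 10 genes differed between the lines by the same test, beside 0.0383% of genes more positive in OE19 and 0.191% more negative, and 0 passed with DESeq2. The unadjusted p was under 0.05 for 2 of them, both more negative, APC (0.0417) and TCF7L2 (0.0222), with adjusted p of 0.907 and 0.797 by edgeR with rank aggregation. Of all genes, 5.39% were more negative in OE19 at that threshold and 5.2% more positive. The TCF7L2 difference had a median of -0.11 (SD 0.71), and 3 of 6 sgRNAs were below 0. APC had a median of 0.04 (SD 0.51), against the direction of its p.

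A list of 77 other Wnt pathway genes gave no call either. By edgeR with rank aggregation, 0 of 77 passed in each direction in every comparison above, and 0 by DESeq2. At an unadjusted p under 0.05, 5 were higher and 8 lower in N87 with lapatinib against vehicle, 3 and 4 in OE19, and 3 and 2 in N87 and 5 and 1 in OE19 without drug. The shares of all genes at that threshold were 5.08% and 5.18%, 5.47% and 5.37%, 5.11% and 7.07%, and 4.99% and 6.99% in the same order. Their median of medians was -0.25 in N87 and 0.08 in OE19 with lapatinib against vehicle, and 0.03 and 0.02 without drug. The gene nearest the threshold was CSNK1A1, a casein kinase that primes beta-catenin for GSK3B in the destruction complex. Without drug its median was -0.62 (SD 0.33) in N87, 340th of 20894 from the lowest (adjusted p = 0.0578 by edgeR with rank aggregation), and -0.62 (SD 0.54) in OE19, 512th from the lowest (adjusted p = 0.142). CSNK1A1, a brake, and TCF7L2, a forward component, were thus both below baseline in both lines, without passing the test.

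FBXW11, a part of the ubiquitin ligase that recognises marked beta-catenin and named here after its values were seen, came next in N87 without drug, with a median of -0.40 (SD 0.60, adjusted p = 0.116 by edgeR with rank aggregation). In the other directions and comparisons, the list genes of lowest p were the Frizzled receptor FZD7 (1.83, SD 2.06, adjusted p = 0.571 by edgeR with rank aggregation) and the ligand WNT16 (-1.385, SD 1.13, adjusted p = 0.778) in N87 with lapatinib. In OE19 with lapatinib they were the ligand WNT1 (0.38, SD 1.06, adjusted p = 0.830 by edgeR with rank aggregation) and the corepressor TLE3, whose p was for depletion (adjusted p = 0.729) although its median was 0.26 (SD 1.05). Without drug SFRP4, a secreted antagonist, had the lowest p for enrichment in N87 (adjusted p = 0.885 by edgeR with rank aggregation) at a median of 0.04 (SD 0.325), and the ligand WNT7B in OE19 (0.35, SD 0.21, adjusted p = 0.790).

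The genes whose levels followed those of APC, CTNNB1 and RNF43 most closely over the 12 libraries were not among the 10. Only sgRNAs with at least 40 counts in the 2 libraries of every condition were used here. These were 4 sgRNAs of APC, 6 of CTNNB1 and 5 of RNF43. Of 18243 genes compared by log2 level relative to baseline of the same line, TMEFF1 (r = 0.936), APOBEC2 (0.935) and CCS (0.925) were nearest to APC, RMND5B (0.979), KRT33B (0.977) and POU3F3 (0.977) to CTNNB1, and STYK1 (0.953), SRSF4 (0.949) and PAQR9 (0.948) to RNF43. Within the 10, the nearest to CTNNB1 was TCF7L2 (0.527) and the farthest AXIN1 (-0.937) and AXIN2 (-0.935). The nearest to APC was GSK3B (0.504) and the farthest PORCN (-0.807). The libraries share line and condition, and the N87 lapatinib libraries hold the widest changes, so these values of r over 12 libraries describe likeness only.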

How the data were processed

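The authors trimmed the reads of 12 libraries, checked and mapped them to the guide library at fewer than 2 mismatches (FastQC 0.11.5 and Bowtie2 2.3.2 are named among the submitters' processing tools), and deposited raw counts per sgRNA. Their gene scores (MAGeCK 0.5.6, edgeR) were not used here.

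In R 4.3.3, edgeR 4.0.16 (TMM, quasi-likelihood test, no replicate block) was fitted to all sgRNAs with at least 40 counts over the 4 libraries of a comparison, or 80 over 8. Robust rank aggregation over ranks within 0.05 gave the p of each gene with at least 2 sgRNAs, the control guides being ranked but not scored. Adjusted p-values are Benjamini-Hochberg values over all sgRNAs or genes. Normalized counts use median-of-ratios scaling, and folds a pseudocount of 1. The gene test was also run on simulated counts in which all sgRNAs of a changed gene shared the same fold. The wide spread between sgRNAs of a gene in N87 with lapatinib was not simulated. Counts are reads without molecular identifiers. Coordinates are from GENCODE 44 on GRCh37. Alternatives were DESeq2 1.42.0, other scalings, no filter, a replicate block, all libraries of a line, and each library left out.

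The 10 genes, the list of 77 other Wnt genes and the tests were chosen with earlier results of these data known. Named genes are the 10, of the list the gene of lowest p in each direction, and the 3 most alike to APC, CTNNB1 and RNF43. Single sgRNAs were named after their values were seen. Figures were drawn with matplotlib 3.10.9.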

Additional observations from a re-analysis of the deposited data

How the results depend on the processing

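No alternative brought any of the 10 genes past the threshold in the gene test except leaving out OE19 vehicle replicate 2, which called 1 gene lower in OE19 with vehicle against baseline, TCF7L2, so that leaving out 1 library gave 0 to 1. Total counts alone as the scale moved the median of all genes with lapatinib against vehicle from -0.093 to -0.615 in N87 and from -0.019 to -0.462 in OE19, and control guides moved it to -0.369 and 0.101. Of the gene medians of the 10, 2 of 100 values changed sign in N87 and 10 of 100 in OE19 with lapatinib against vehicle, and 17 and 11 of 100 without drug.

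The counts of sgRNAs were less stable. In N87 with lapatinib against vehicle, 20 higher and 17 lower became 13 and 28 with total counts, beside 19% and 44.9% of all sgRNAs. With control guides they became 14 and 21, beside 24.5% and 37.7%. In OE19 with lapatinib against vehicle, 2 higher became 0 with total counts, beside 1.4% of all. With the replicate block it was 1, beside 2.36%. Without drug in N87, 0 became 1 lower with the replicate block, beside 2.16%. In OE19 without drug, 1 became 4 with the block (1 higher and 3 lower, beside 0.599% and 3.09%). It became 0 with all 6 libraries in the fit, beside 0%. Lapatinib against baseline gave 40 in N87 (19 higher and 21 lower, beside 33.7% and 33.6% of all). With 1 library left out it gave 25 to 46. The 25 stood beside 25.2% higher and 16.6% lower of all, and the 46 beside 35.6% and 36.3%. In OE19 lapatinib against baseline gave 0, beside 0.000817% higher and 0% lower of all. It became 5 with DESeq2 (4 higher and 1 lower, beside 5.92% and 1.57%). With the block it became 1 higher, beside 4.5%, and with all 6 libraries 2 higher, beside 2.93%. With 1 left out it became 0 to 20, the 20 being 12 higher and 8 lower, beside 19.8% and 15.9%. The difference between the lines in drug-free change gave 0, beside 0% of all more positive in OE19 and 0.00325% more negative. With 1 left out it gave 0 to 4, the 4 being more negative, beside 0.506% of all.

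Brakes minus forward ran from -0.121 to 0.020 in N87 and from -0.395 to 0.080 in OE19 with lapatinib against vehicle when 1 library was left out, from -0.369 to -0.115 in OE19 with lapatinib against baseline (-0.172 with the block), and from -0.547 to -0.045 for the difference between the lines in the lapatinib effect. The causes were not tested. The labels do not say whether libraries of the same replicate number come from the same infection, so the replicate pairs above are matches by number. The main tests did not take them as pairs. Differences between replicates correlated with r = 0.0606 and 0.034 between lapatinib and vehicle, and 0.238 and 0.0746 between vehicle and baseline, in N87 and OE19. The block changed no gene call among the 10. Over all genes it moved the calls from 12 higher and 489 lower to 16 and 539 in N87 without drug, and from 4 to 0 for the difference between the lines in the lapatinib effect. The thinnest library, OE19 lapatinib replicate 1, had a median of 50 reads per sgRNA of the 10 genes, which limits what could be detected there.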
